A study of Mus musculus with 31 samples.

Results

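Colon bacteria of Rank2 mice and Rank3 mice were compared, 7 and 6 libraries of the 31 in the series, chosen by the rank that the sample titles give. All are male mice aged 6 to 8 weeks, and each library holds 16S rRNA gene amplicons from colon contents. The titles name no treatment for either rank and do not say how the rank was set, nor which cage a mouse came from. The values are reads of 10 amplicon sequence variants (ASVs, exact 16S sequences that stand for a bacterial strain or a group of close strains).

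The 16S gene is shared by all bacteria, and its variable stretches let amplicons be sorted into lineages. The colon of a mouse holds a dense community of anaerobes, most of them Bacteroidota and Firmicutes, that ferment fibre and host mucus. Mice of one cage exchange these bacteria by eating faeces, so a lineage can be carried by some mice and missing from others. An ASV can therefore differ between groups in 2 ways, by how many mice carry it (carriage, at least 1 read) and by how many reads its carriers hold. The rank table gives no taxonomy for its ASVs. ASV614 alone is also listed in another table of the series, which assigns it to Oscillibacter of the Oscillospiraceae, a genus of strictly anaerobic gut Firmicutes.

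The 10 ASVs are a chosen list, so their summed reads are not the depth of a library. These sums were 88 to 612 in Rank2, with a median of 492, and 168 to 693 in Rank3, with a median of 401. Rank2 replicate 3 stood apart with 88 reads, against 399 in the next lowest Rank2 library, and without it edgeR called as many ASVs (4), carriage, permutation and log-ratio tests again called 0, and Rank3 mice carried 1 more listed ASV than Rank2 mice on average in place of 1.24. The sources used here do not give the rule by which the ASVs were listed. If they were listed for differences between ranks, the tests on the same mice are not independent evidence. The labels number the libraries but name no mouse or cage, so p-values measure only the spread between these libraries.

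ASV25 and ASV46 made up most of the listed reads in each of the 13 libraries, at 57.9% or more, and the ASVs that differed between the ranks were among the less abundant ones. The 2 ASVs together held 80.4% ± 14.4 of the listed reads in Rank2 (SD, n = 7) and 73.0% ± 8.31 in Rank3 (SD, n = 6). The remainder in Rank2 was largely ASV91 and ASV641, with mean shares of 8.46% and 6.53%. In Rank3 it was largely ASV774 and ASV648, with mean shares of 10.1% and 9.14%.

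**Figure D1:**
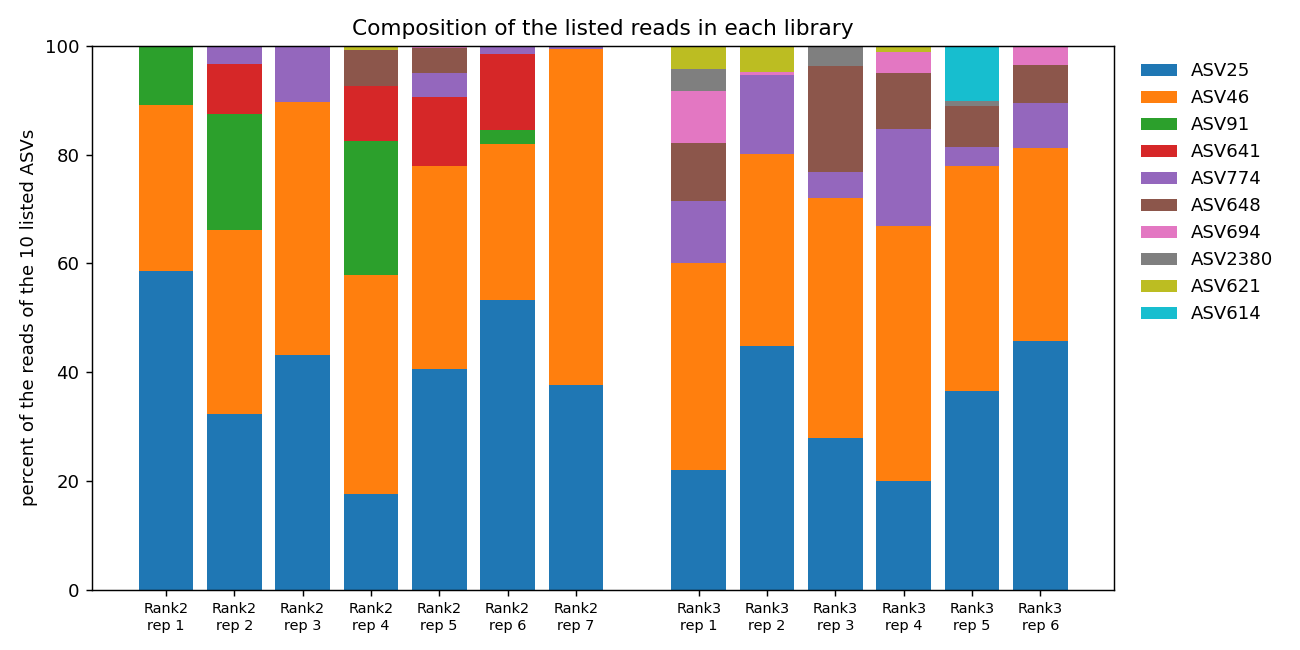
Each bar is 1 library, and the vertical axis is the percent of its reads of the 10 listed ASVs that each ASV holds. ASV91 and ASV641 appear only in Rank2 bars, in 5 of 7, and ASV774 appears in all 6 Rank3 bars.

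At an adjusted p under 0.05 in edgeR's quasi-likelihood test, 4 of the 10 ASVs differed between the ranks (40% of those tested). ASV91 and ASV641 were lower in Rank3 (20% of those tested), and ASV614 and ASV2380 were higher there (20%). Each of the 4 had no read in one whole rank. Adjustment ran over the 10 ASVs of the table.

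ASV91 had no read in any of the 6 Rank3 mice. In Rank2 its lowest, median and highest values were 0, 13 and 129 reads, and its 4 carriers were replicates 1, 2, 4 and 6 with 53, 85, 129 and 13 reads. The Rank2 mean was 40 ± 51.1 reads (SD, n = 7), at least 13.3-fold that of Rank3 when each Rank3 library is set to a floor of 3 counts (edgeR adjusted p = 0.00618). The 3 Rank2 mice without it cannot be told from Rank3 mice by this ASV, so the ranks overlapped at 0. Without replicate 4, which held 46.1% of its Rank2 reads, the bound was 8.39-fold.

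ASV641 was likewise at 0 reads in all 6 Rank3 mice. Its Rank2 values ran from 0 to 77 reads with a median of 37, and replicates 2, 4, 5 and 6 carried it with 37, 52, 77 and 72 reads. Its carriers thus lay closer together than those of ASV91, at 59.5 ± 18.5 reads (SD, n = 4) against 70 ± 49.1 (SD, n = 4). The Rank2 mean of 34 ± 34.4 reads was at least 11.3-fold that of Rank3 (edgeR adjusted p = 0.00618). Without replicate 5 the bound was 8.94-fold.

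The carriers of both overlapped within Rank2 without being the same mice. Of the 7 Rank2 mice 3 carried both, 1 carried ASV91 alone, 1 carried ASV641 alone and 2 carried neither. The mice with neither were replicates 3 and 7, and replicate 3 is the library with 88 listed reads. ASV91 and ASV641 passed the adjusted threshold in 21 of 21 alternative fits each, which include edgeR with other library scales, DESeq2, limma on centred log-ratios and each library left out. Their highest adjusted p-values over those fits were 0.0191 each. Those fits include a filter at a summed count of 10 reads, which removed no ASV and repeats the main fit.

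ASV614 of Oscillibacter passed edgeR on 1 library. Rank3 replicate 5 held 70 reads and the other 12 mice held none, so the Rank3 mean of 11.7 ± 28.6 reads (SD, n = 6) is that single mouse (edgeR adjusted p = 0.0119). Without it there is no read to test. DESeq2 gave no adjusted p for it, and limma on centred log-ratios gave an adjusted p of 0.554. Carriage was 0 of 7 Rank2 and 1 of 6 Rank3 mice (Fisher's exact p = 0.462). That is the smallest p the test can give with 1 carrier, so it cannot decide whether carriage differs.

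ASV2380 had no read in the 7 Rank2 mice and 7, 11 and 7 reads in Rank3 replicates 1, 3 and 5. Its lowest, median and highest values in Rank3 were 0, 3.5 and 11 reads. The Rank3 mean of 4.17 ± 4.79 reads (SD, n = 6) was at least 1.39-fold that of Rank2 against the floor (edgeR adjusted p = 0.0164). Without its highest library that mean was 2.80 reads, under the floor. The call was kept in 13 of 13 edgeR fits that left out 1 library, but DESeq2 with equal size factors gave an adjusted p of 0.118 and limma on centred log-ratios 0.211. Its reads per library are close to the floor of 3 counts, so at this depth low abundance and absence cannot be told apart.

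**Figure D2:**
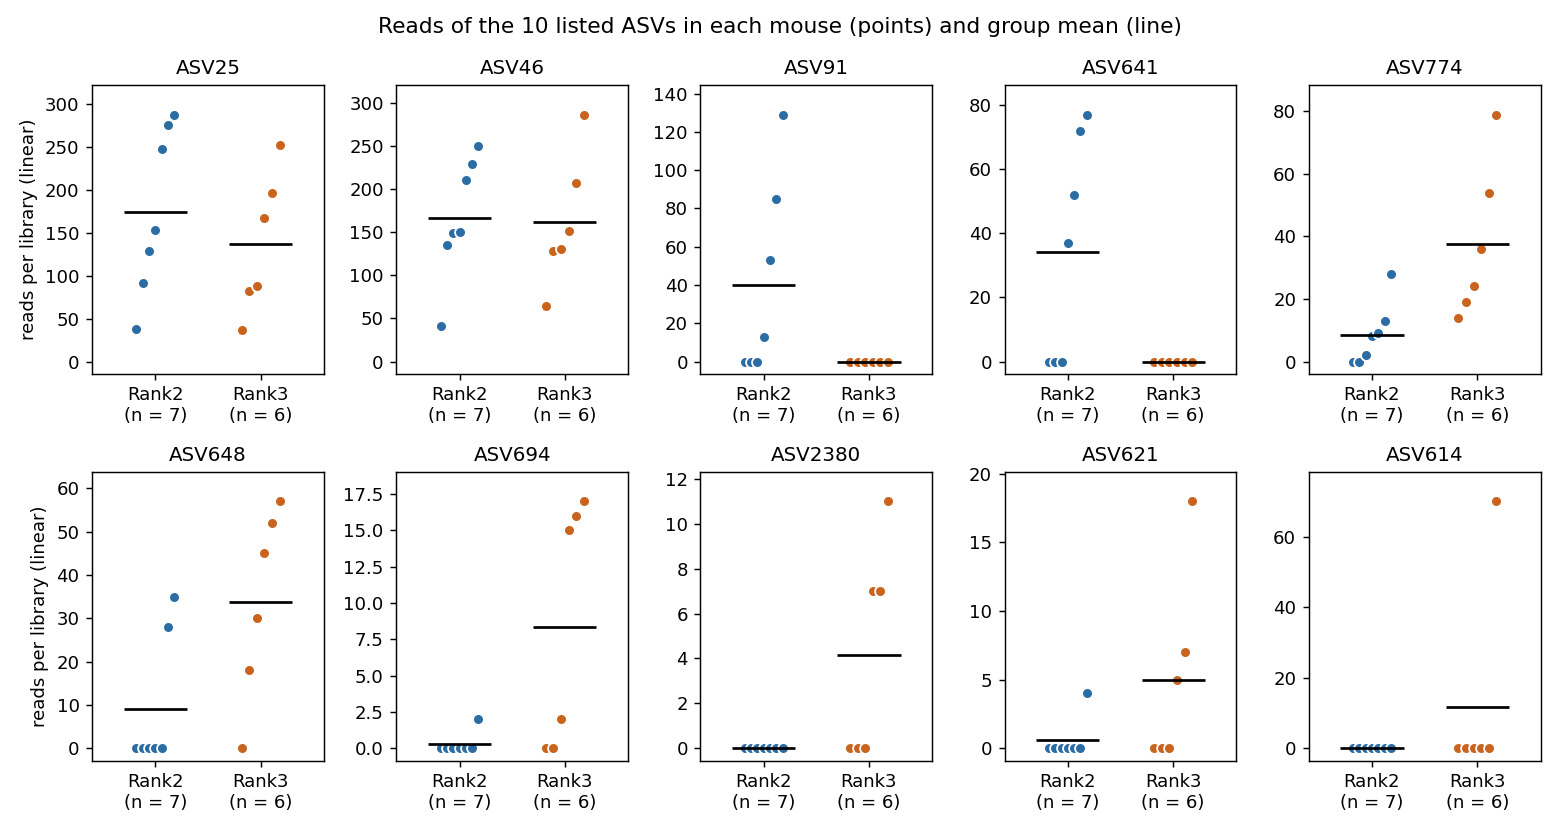
Each point is 1 mouse, the line is the group mean, and the vertical axis is reads per library on a linear scale that differs between panels. ASV91 and ASV641 are at 0 in all 6 Rank3 mice, ASV774 is at 14 reads or more in all 6, and ASV25 and ASV46 span similar ranges in both ranks.

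ASV774, ASV648 and ASV694 did not pass edgeR, yet they had the smallest p-values in an exact permutation test of mean reads. ASV774 had reads in all 6 Rank3 mice, with a lowest, median and highest value of 14, 30 and 79 reads. In Rank2 it had reads in 5 of 7 mice, with 0, 8 and 28 reads. All 6 Rank3 mice lay above the Rank2 median and 3 of them above the highest Rank2 mouse, which was replicate 5 with 28 reads.

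The means of ASV774 were 37.7 ± 24.8 reads in Rank3 (SD, n = 6) and 8.57 ± 9.90 in Rank2 (SD, n = 7), a ratio of 4.39. The exact two-sided permutation p was 0.00758 and the adjusted p 0.0758. edgeR gave a log2 difference of 2.12 with a standard error of 1.77 (adjusted p = 0.335). Leaving out Rank2 replicate 5 brought the adjusted exact permutation p to 0.0217, and leaving out Rank3 replicate 3 brought it to 0.0379. In the other 11 such tests the call was not made. Among carriers alone ASV774 held 37.7 reads in Rank3 and 12 ± 9.77 in Rank2 (SD, n = 5), a difference that was not tested.

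ASV648 passed no test after adjustment, neither on reads nor on carriage. Its lowest, median and highest values were 0, 37.5 and 57 reads in Rank3, where 5 of 6 mice carried it, and 0, 0 and 35 reads in Rank2, where 2 of 7 did. The Rank2 carriers were replicates 4 and 5 with 35 and 28 reads. Carriers held 40.4 ± 16.1 reads in Rank3 (SD, n = 5) and 31.5 ± 4.95 in Rank2 (SD, n = 2). The means over all mice were 33.7 ± 21.9 and 9 ± 15.5 reads, a ratio of 3.74 (exact permutation p = 0.0396, adjusted 0.132; edgeR adjusted p = 0.368).

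ASV694 was sparse in both ranks. It had 16, 2, 17 and 15 reads in Rank3 replicates 1, 2, 4 and 6 and a Rank3 median of 8.5. In Rank2 only replicate 5 had any, with 2 reads. The ratio of means was 29.2, with a 95% counting interval of 7.66 to 247.5 that covers counting error only (exact permutation p = 0.0373, adjusted 0.132; edgeR adjusted p = 0.0734). Over 21 alternative fits its adjusted p ran from 0.0242, in edgeR without Rank2 replicate 5, to 0.224, and 3 of the 21 passed, among them edgeR with TMM scaling (adjusted p = 0.0421).

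ASV621 had 7, 18 and 5 reads in Rank3 replicates 1, 2 and 4, and 4 reads in Rank2 replicate 4. Those 3 Rank3 mice all carried ASV694 as well. Its means were 5 ± 7.04 reads in Rank3 (SD, n = 6) and 0.571 ± 1.51 in Rank2 (SD, n = 7), and it did not pass (edgeR adjusted p = 0.214; exact permutation p = 0.119). Without Rank2 replicate 4 its edgeR adjusted p was 0.0361.

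Over the 10 ASVs the exact permutation test on mean reads called 0 (0% of those tested) after adjustment and 3 (30%) before it, the 3 being ASV774, ASV648 and ASV694. For ASV91 and ASV641 that test gave p-values of 0.119 and 0.0699. edgeR and the permutation test therefore ranked the ASVs differently: the 4 smallest edgeR p-values belonged to ASVs at 0 in one rank, and the 3 smallest permutation p-values to ASVs with reads in both. This contrast was partly fixed in advance by the number of carriers. Over the 13 libraries the permutation p could not be under 0.462 for ASV614, nor under 0.0699 for ASV2380, ASV641 and ASV91.

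ASV25 and ASV46 were carried by every mouse and showed no detectable difference. ASV25 had a lowest, median and highest value of 38, 153 and 288 reads in Rank2 and 37, 127.5 and 253 in Rank3. Its means were 174.9 ± 97.1 and 137 ± 81.7 reads, a log2 difference of -0.35 with a standard error of 0.49 (edgeR adjusted p = 0.536). ASV46 had 41, 151 and 251 reads in Rank2 and 64, 141.5 and 287 in Rank3. Its means of 167 ± 71.1 and 162 ± 76.7 reads differed by log2 -0.04 with a standard error of 0.48 (edgeR adjusted p = 0.926), and the sign turned with TMM scaling, at log2 0.27. Approximate 95% intervals (normal, from the standard errors) of the log2 differences ran from -1.32 to 0.62 for ASV25 and from -0.98 to 0.90 for ASV46, so neither ASV is shown to be equal between the ranks.

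Carriage does not depend on how libraries are scaled, although a deeper library can still show a rare ASV that a shallower one misses. Fisher's exact test on carriers called 0 of 10 ASVs (0% of those tested), and 0 of 10 had an unadjusted p under 0.05. For some ASVs this outcome was fixed by the number of carriers. With 1, 3 or 11 carriers, as for ASV614, ASV2380 and ASV774, the smallest p that Fisher's exact test can give is 0.462, 0.0699 or 0.192. With 4 carriers it can give 0.021, but only if all 4 are in Rank3. With all 4 in Rank2, as for ASV91 and ASV641, it cannot give a p under 0.0699. ASV25 and ASV46, which every mouse carried, could not differ in carriage. The smallest p was 0.0699, shared by ASV91, ASV641 and ASV2380, with an adjusted p of 0.205. For ASV91 and ASV641 alike, carriage was 57.1% of Rank2 mice, with an exact 95% binomial interval of 18.4% to 90.1%. Their Rank3 carriage of 0 of 6 mice allowed up to 45.9%. ASV648 was carried by 28.6% of Rank2 and 83.3% of Rank3 mice, and ASV694 by 14.3% and 66.7% (Fisher's exact p = 0.103 each).

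**Figure D3:**
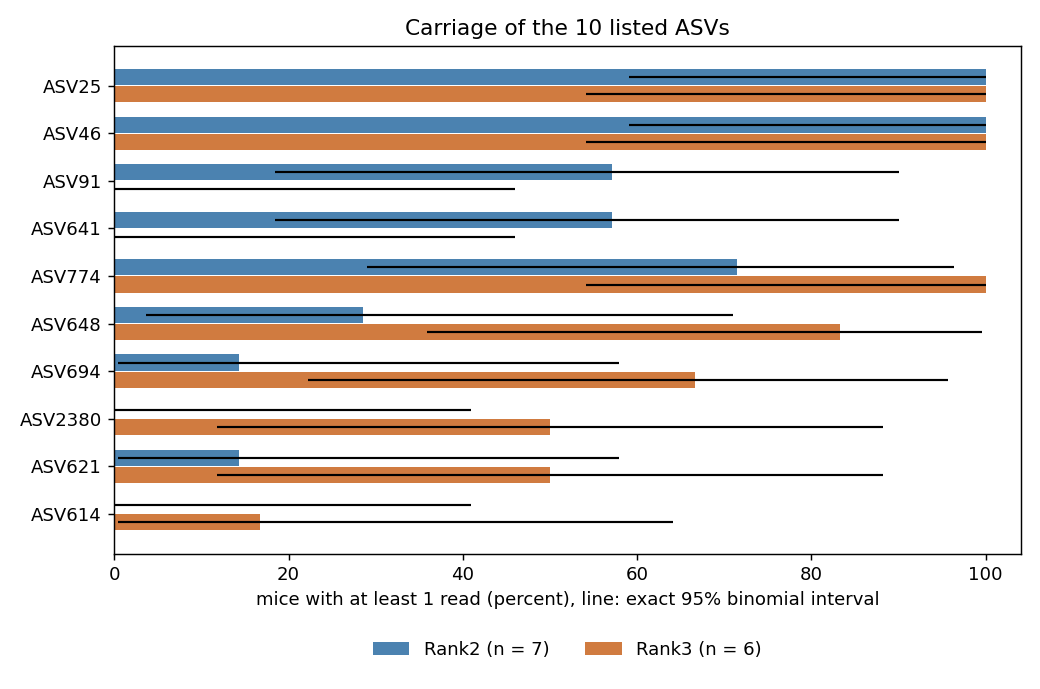
Bars are the percent of mice with at least 1 read of each ASV, for 7 Rank2 and 6 Rank3 mice, and black lines are exact 95% binomial intervals. Intervals of the ranks overlap for every ASV, ASV91 and ASV641 included.

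Mice of Rank2 carried 3 to 6 of the listed ASVs, 4.43 ± 1.40 on average (SD, n = 7), and mice of Rank3 carried 5 to 7, 5.67 ± 0.817 on average (SD, n = 6). Rank2 replicates 1, 3 and 7 carried 3 each, a number below that of every Rank3 mouse. Their listed sums were 492, 88 and 406 reads. Rank3 replicate 1 carried the most, 7, with a listed sum of 168 reads. The part of library depth in these numbers was not tested, since listed sums are not depths.

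The sets of ASVs that 2 mice carried were compared by the Jaccard distance, which is 0 for equal sets and 1 for sets that share nothing. Its mean was 0.441 over 21 pairs within Rank2, 0.340 over 15 pairs within Rank3 and 0.542 over 42 pairs between ranks. The ranges overlapped, from 0 to 0.714 within Rank2, 0.143 to 0.625 within Rank3 and 0.167 to 0.750 between ranks. These distances are a description of the listed ASVs only, since the list was chosen.

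Ratios between ASVs of the same library cancel its depth, apart from the pseudocount of 0.5 reads that zeros require. All 45 pairs were tested by exact two-sided permutation of mean log2 ratios. None passed after adjustment (0% of those tested), with a smallest adjusted p of 0.0524, while 20 (44.4%) had an unadjusted p under 0.05. limma over the same 45 pairs called 13. Of the 20 pairs 15 held ASV91 or ASV641, and pairs that share an ASV are not independent.

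The ratio of ASV641 to ASV774 was the 1 pair of 45 (2.22%) whose ranks did not overlap. Its log2 ratio ran from -4.25 to 6.71 in Rank2 and from -7.31 to -4.86 in Rank3. The nearest values were those of Rank2 replicate 3, with 9 reads of ASV774, and Rank3 replicate 3, with 14. Neither had a read of ASV641, so there the ratio follows the reads of ASV774 and does not cancel depth. Rank2 replicate 3 had only 88 listed reads. ASV774 made up 10.2% of them, within the Rank3 range of 3.46% to 17.9%. The mean was 0.88 ± 3.58 in Rank2 (SD, n = 7) and -6.00 ± 0.93 in Rank3 (SD, n = 6), a difference of -6.88 with a standard error of 1.41 (exact permutation p = 0.00175, adjusted 0.0524). Every Rank3 mouse held ASV774 without ASV641. Of the Rank2 mice 2 did so as well, 3 held both, 1 held ASV641 alone and 1 held neither. The size of such a ratio follows the pseudocount where one ASV is at 0, with a difference of -5.99 at a pseudocount of 1 and -8.91 at 0.1.

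The ratio of ASV641 to ASV648 averaged 2.20 ± 3.13 in Rank2 and -5.20 ± 2.62 in Rank3 on the log2 scale (exact permutation p = 0.00233, adjusted 0.0524). Its ranks met at a log2 ratio of 0, where both ASVs were without a read, in 3 Rank2 mice and in Rank3 replicate 2. The ratio of ASV648 to ASV91 averaged -2.14 ± 4.63 in Rank2 and 5.20 ± 2.62 in Rank3 (exact permutation p = 0.00641, adjusted 0.0834). The log2 ratio of ASV641 to ASV91 averaged 0.07 ± 4.23 in Rank2 (SD, n = 7), and it has no counterpart in Rank3, where no mouse had a read of either.

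Ratios to the ASVs that every mouse carried gave the same direction for ASV774 as its reads did. The log2 ratio of ASV25 to ASV774 averaged 5.15 ± 2.58 in Rank2 and 1.84 ± 1.17 in Rank3, lower in all 6 Rank3 mice than the Rank2 mean (exact permutation p = 0.0146, adjusted 0.0834). That of ASV46 to ASV774 averaged 5.17 ± 2.67 and 2.19 ± 0.95, also lower in all 6 (exact permutation p = 0.0251, adjusted 0.0940). Between ASV25 and ASV46 the log2 ratio averaged -0.02 ± 0.78 in Rank2 and -0.35 ± 0.65 in Rank3, a difference of -0.33 with a standard error of 0.39 (exact permutation p = 0.411). It ranged from -1.19 to 0.93 and from -1.23 to 0.37, so either ASV could be the more abundant one in both ranks.

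**Figure D4:**
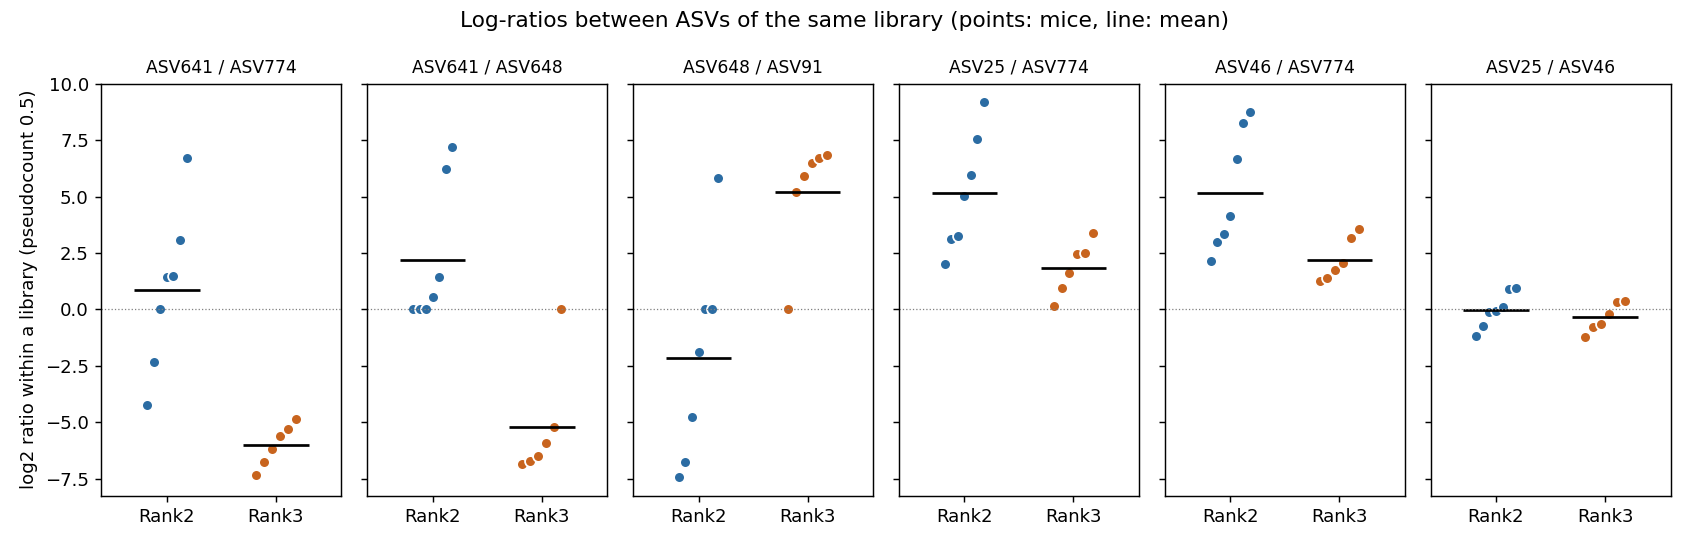
Each point is the log2 ratio of a pair of ASVs within 1 library, with a pseudocount of 0.5 reads, for 7 Rank2 and 6 Rank3 mice, and lines are means. The ranks are separate for ASV641 over ASV774, shifted with overlap for the next 4 pairs, and similar for ASV25 over ASV46.

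**Figure D5:**
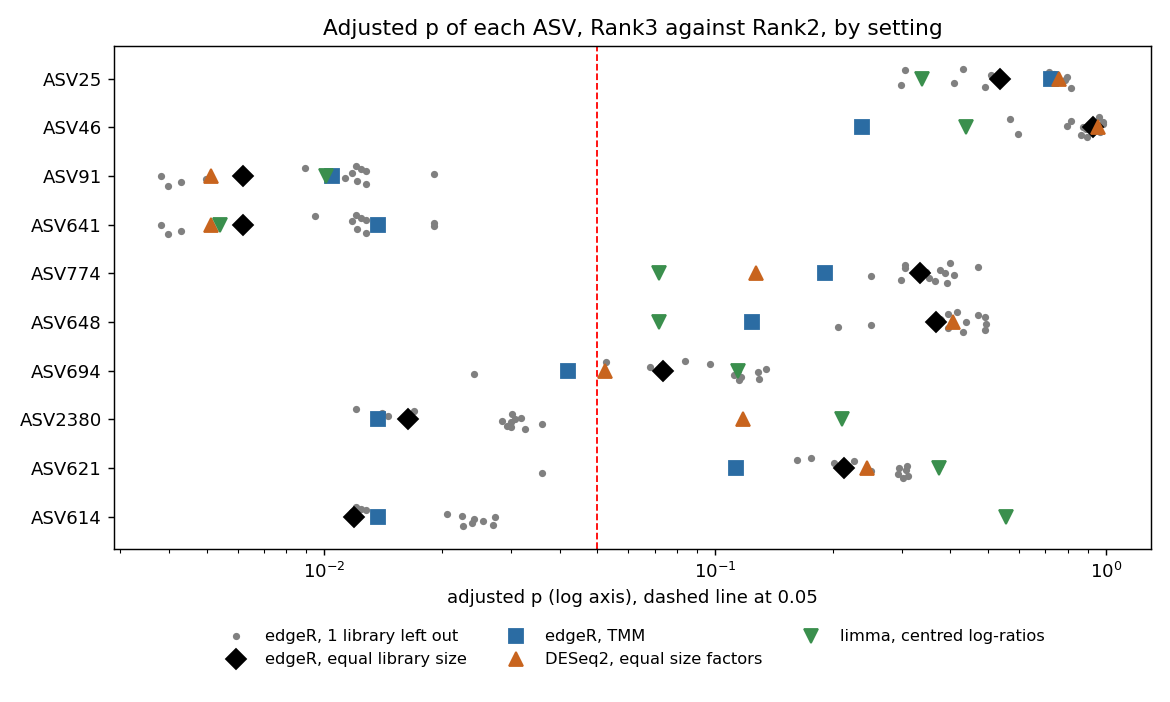
Adjusted p of each ASV for Rank3 against Rank2 on a log axis, with the threshold of 0.05 dashed; grey points leave out 1 library each and other symbols are other tools or scales. ASV91 and ASV641 lie left of the line in all fits shown, and ASV25 and ASV46 lie right of it in all. ASV2380 lies right of it with DESeq2 and with limma. ASV614 lies right of it with limma and has no DESeq2 point, since DESeq2 gave it no adjusted p.

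Across the edgeR, DESeq2 and limma fits the ASVs fell into 3 kinds. ASV91 and ASV641 were called in all of them, and neither passed the permutation or Fisher tests. With all 4 carriers in Rank2, those 2 tests cannot give a p under 0.0699 over the 13 libraries. They therefore cannot decide for these 2 ASVs. ASV2380, ASV614, ASV694 and ASV621 were called in 16 of 20, 15 of 17, 3 of 21 and 1 of 21 alternative fits that gave them an adjusted p. Each call of ASV614 rested on Rank3 replicate 5, the only library with its reads. ASV774, ASV648, ASV25 and ASV46 were called in none of 21. These counts include the summed-count filter, which repeats the main fit.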

How the data were processed

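Per the labels' protocols, DNA was extracted from colon contents with a stool kit, amplified by PCR and sequenced as paired reads on an Illumina NextSeq instrument. The authors' table holds raw counts, deposited as reads of each listed ASV in each library. No denoiser, primer or listing rule is given in the sources used here. Columns were matched by library name and groups taken from titles. All 36 library pairs within a rank differed by chi-square (largest p 0.00056).

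edgeR 4.0.16 (glmQLFit, glmQLFTest) was run on the 13 libraries with equal library sizes and no filter, since scaling factors from chosen ASVs would follow the ASVs that differ. Exact permutation tests used all 1716 splits, with a smallest possible p of 0.000583. scipy 1.17.1, limma 3.58.1 and DESeq2 1.42.0 served the other tests. Standard errors of edgeR values were derived from F. Adjustment was by Benjamini-Hochberg at 0.05. The code was tested on simulated data. In 60 simulated tables with a common spread for all ASVs, edgeR called 3.33% of the 4-fold and 30.8% of the 16-fold differences. An ASV that edgeR did not call is therefore not shown to be equal between the ranks. All 10 ASVs are named. The members, tests and alternatives were chosen with earlier results of these data known. Planned permutation p-values for the number of ASVs carried, the listed sum and the Jaccard distance are not given, because the ASVs were chosen. Reads are PCR products, so the floors and the interval of the ASV694 ratio cover counting error only.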

Additional observations from a re-analysis of the deposited data

Results flagged for a closer look

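In 22 groups of values (1 ASV or 1 library measure in 1 rank) a gap test asked whether the highest or lowest library stood far from the rest, and 4 did. For normally distributed values chance alone would place about 1 group in 20 there, but sparse counts are not normal. In 3 of the 4 every other library of the rank was at 0 reads, so 1 carrier was enough. These were Rank3 replicate 5 with 70 reads of ASV614, Rank2 replicate 4 with 4 reads of ASV621 and Rank2 replicate 5 with 2 reads of ASV694. The other was the listed sum of Rank2 replicate 3, with 88 reads against 399 in the next lowest library. Without that library edgeR called the same 4 ASVs, ASV2380, ASV614, ASV641 and ASV91.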

How the results depend on the processing

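edgeR called 4 ASVs, and 5 with TMM. DESeq2 with equal or its own size factors, limma on centred log-ratios and edgeR with the replicate block each called 2, ASV91 and ASV641. The cause was not tested. With the replicate block ASV2380 and ASV614 had adjusted p-values of 0.224 and 0.269, but the numbers are not shown to pair mice: same-numbered libraries correlated at -0.248 to 0.372, over 0.1 in 1 of 6 pairs, and 0 of 6 Rank3 libraries correlated best with the Rank2 library of their own number. Leaving out each library in turn gave 3 to 5 edgeR calls, 0 carriage calls and 0 to 1 permutation calls (1 without Rank2 replicate 5 or Rank3 replicate 3, ASV774). It gave 0 to 2 log-ratio calls, the 2 (ASV641 to ASV774 and ASV774 to ASV91) without Rank2 replicate 5. It gave 0.971 to 1.5 more ASVs carried in Rank3, a difference in listed reads of -93.2 to 11.8 (the positive value without Rank3 replicate 1) and a between-rank excess in Jaccard distance of 0.113 to 0.196. Log-ratio calls numbered 2 of 28 pairs among ASVs with reads in at least 4 libraries, where fewer pairs were tested (ASV641 to ASV774 and to ASV648, adjusted p = 0.0326 by exact permutation). They numbered 16 by limma with the replicate block and 13 by limma alone, which was added after seeing the data. The edgeR log2 value of ASV46 turned positive with TMM (0.27), listed totals as library size (0.0101) and the replicate block (0.11), and in 6 fits without 1 library, within -0.29 to 0.12. Over all alternatives, 187 of 206 single-ASV and log-ratio values kept their direction and side of the threshold, and 103 of 114 counts and group differences kept theirs or stayed within 1.5 times. Both totals include the summed-count filter, which repeats the main edgeR fit. The true depth was not used here, so reads near the floor of 3 counts cannot separate absence from low abundance.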
